A study of Mus musculus with 16 samples.

Results

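The lung of adult mice that breathed air only was compared with universal mouse reference RNA, a commercial mixture of RNA from mouse cell lines. The study holds 16 two-colour oligonucleotide arrays, 8 of lung after inhaled lipopolysaccharide and 8 of air-breathing lung, and 7 of the latter were used here. They were chosen by their labels, as the air controls of pools 1 to 4 in either dye, without the array of pool 4 with lung in Cy3. The file of that array joins the images of 2 arrays, so pool 4 was measured with lung in Cy5 alone. The animals were male C57/BL6 mice, 8 weeks old, that were kept as air controls for 5 days and sampled at the end of them, with no treatment other than air, and each pool was RNA of lung from 3 animals. No allele, transgene or drug is named for them in the labels. Each value below is log2(lung/reference) of a pool, the mean of its arrays, so that 0 means an equal signal, 1 a 2-fold higher signal in lung and -1 a 2-fold lower one. The mean of 4 pools is given with its standard error (SE) from the limma fit across all features, and a gene is called higher or lower where that fit's adjusted p was under 0.05.

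The alveoli, where gas is exchanged, are lined by flat type 1 cells and by cuboidal type 2 cells, which make surfactant, the lipid and protein film that keeps the air spaces open. Club and ciliated cells line the airways, where they secrete, detoxify and move mucus. A dense capillary bed, fibroblasts, smooth muscle and resident leukocytes make up most of the remaining tissue, and few cells of a healthy adult lung divide. Cell lines, by contrast, are cells selected for growth in culture.

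Short promoter sequences are shown for genes on which the results below turn, because 3 of the gene groups are known for short motifs near the start site. The first pair, of the surfactant protein genes Sftpa1 and Sftpb, carries in capitals CTCAAG, the core bound by NKX2-1, the homeodomain factor of lung epithelium. The second pair, of the ciliary genes Dynlrb2 and Ccdc113, carries GTTGCC, one arm of the X-box bound by RFX factors (GGCAAC on the other strand). The third pair, of the cell cycle genes Cdk1 and Top2a, carries TTTGAA, the cell cycle homology region (TTCAAA on the other strand). Each window runs 5′ to 3′ on the strand of its gene, from 250 bases before to 50 bases after the start in RefSeq's annotation of GRCm38.p6. The windows lie at chr14:41131538-41131837 (plus strand) for Sftpa1, chr6:72304360-72304659 (plus strand) for Sftpb, chr8:116504765-116505064 (plus strand) for Dynlrb2, chr8:95533850-95534149 (plus strand) for Ccdc113, chr10:69352863-69353162 (minus strand) for Cdk1 and chr11:99024140-99024439 (minus strand) for Top2a. Among the members of each group that were called and whose window holds the motif, the pair with the largest ratios is printed.
Sftpa1: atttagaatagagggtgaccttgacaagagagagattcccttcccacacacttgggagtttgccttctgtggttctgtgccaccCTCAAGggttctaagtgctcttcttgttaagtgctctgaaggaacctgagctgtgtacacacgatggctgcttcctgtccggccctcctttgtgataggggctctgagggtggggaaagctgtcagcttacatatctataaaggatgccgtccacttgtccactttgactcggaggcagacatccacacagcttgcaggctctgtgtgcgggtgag
Sftpb: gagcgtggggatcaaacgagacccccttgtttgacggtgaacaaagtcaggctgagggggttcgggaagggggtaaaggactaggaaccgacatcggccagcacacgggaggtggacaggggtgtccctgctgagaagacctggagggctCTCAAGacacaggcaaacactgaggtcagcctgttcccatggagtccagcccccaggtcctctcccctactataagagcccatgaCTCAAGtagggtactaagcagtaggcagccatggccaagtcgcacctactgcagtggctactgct
Dynlrb2: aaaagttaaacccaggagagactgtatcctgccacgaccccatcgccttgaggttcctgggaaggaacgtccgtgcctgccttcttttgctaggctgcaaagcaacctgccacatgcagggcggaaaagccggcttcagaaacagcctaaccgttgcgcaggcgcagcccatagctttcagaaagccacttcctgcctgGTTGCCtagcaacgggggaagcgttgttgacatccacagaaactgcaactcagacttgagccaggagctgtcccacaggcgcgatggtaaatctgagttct
Ccdc113: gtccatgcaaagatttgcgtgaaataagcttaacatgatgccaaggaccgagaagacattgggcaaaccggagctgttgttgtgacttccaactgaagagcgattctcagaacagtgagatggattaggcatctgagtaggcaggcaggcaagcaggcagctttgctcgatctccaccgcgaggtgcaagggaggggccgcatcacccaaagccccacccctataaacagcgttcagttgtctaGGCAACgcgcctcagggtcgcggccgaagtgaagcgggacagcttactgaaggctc
Cdk1: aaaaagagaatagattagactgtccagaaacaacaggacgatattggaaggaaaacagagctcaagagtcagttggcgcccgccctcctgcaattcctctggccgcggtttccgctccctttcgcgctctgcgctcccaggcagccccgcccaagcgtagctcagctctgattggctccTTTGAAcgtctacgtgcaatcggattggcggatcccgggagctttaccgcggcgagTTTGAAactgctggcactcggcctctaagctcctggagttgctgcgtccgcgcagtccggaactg
Top2a: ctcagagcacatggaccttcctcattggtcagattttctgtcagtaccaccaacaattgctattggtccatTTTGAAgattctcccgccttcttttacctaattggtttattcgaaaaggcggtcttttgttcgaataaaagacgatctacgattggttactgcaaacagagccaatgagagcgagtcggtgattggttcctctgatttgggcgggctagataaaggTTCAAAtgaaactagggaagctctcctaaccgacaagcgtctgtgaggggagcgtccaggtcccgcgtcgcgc

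In the 4 air pools, 4054 of 20640 features tested were higher in lung than in the reference and 4379 were lower, at an adjusted p under 0.05. That is 19.6% higher and 21.2% lower, so a call alone says little about a gene, and sizes are given beside it. Past 4-fold, 181 features (0.877%) were higher and 201 (0.974%) lower. Of the 8433 called features, 8351 had all measured pools on one side of 0. The count of higher features was 2635 without pool 1. The normalisation centres each array near 0 (median over all features 0.04), so every ratio is relative to the typical feature on the array and not an absolute amount. Counts of 3 or fewer members of a list below often moved by 1 or 2 when a pool was left out and are given without that range. Larger counts could move too, and the range is given for some of them only. In bulk tissue, fewer cells of a type and less RNA per cell cannot be told apart.

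The 7 arrays gave positive signal in both channels on 97.2% to 99.5% of spots, and the median lung signal was 4.76 to 14.7 times the local background. The pools fell in 2 pairs. Pools 1 and 2 were read with version 2.2.4 of the image program and pools 3 and 4 with version 2.2.3, and the image names carry a week number of 4 for the first pair and 8 for the second, while the labels of all give 1 week. The log2 ratios correlated across features at r = 0.931 between pools 1 and 2, 0.855 between pools 3 and 4, and 0.721 to 0.793 across the pairs. The 2 arrays of a pool with dyes exchanged correlated at 0.795 in pool 1, 0.479 in pool 2 and 0.82 in pool 3. Pool 3 had the smallest ratio of the 4 pools for 17 of the 20 genes highest in lung. In the limma fit with the version as a term, 0 of 20391 features differed between the pairs at an adjusted p under 0.05. At an unadjusted p under 0.05, 5688 did. That fit set 2 pools against 2, so the 0 does not show that the pairs were alike. Version, week number and pool pair cannot be told apart.

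**Figure D1:**
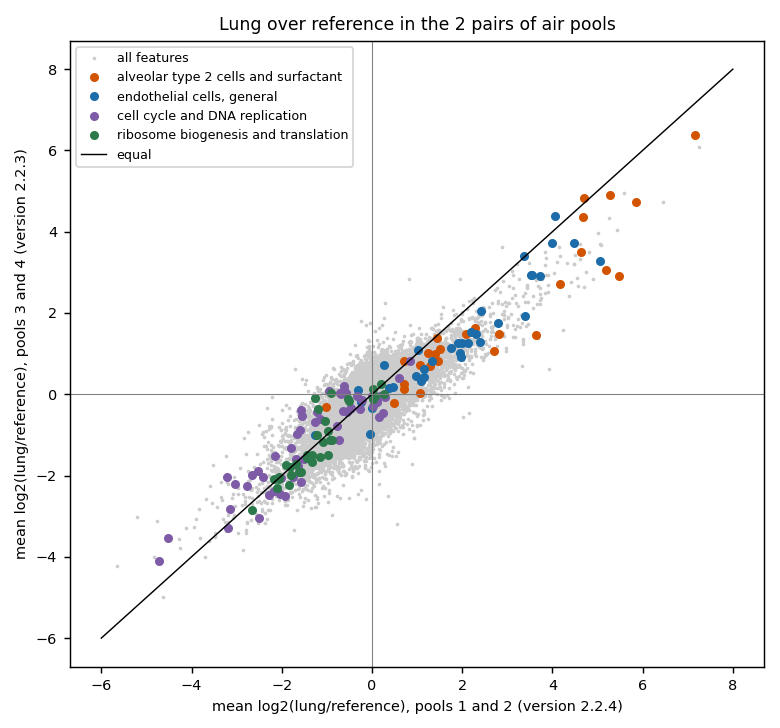
Mean log2(lung/reference) of pools 3 and 4 (vertical axis) against that of pools 1 and 2 (horizontal axis) for each feature with a value in all 4 pools, with the diagonal of equal values. Most type 2 cell and endothelial genes lie to the upper right, Slc34a2 highest among them at a mean of 6.77, and most cell cycle and ribosome genes to the lower left, with Cdk1 lowest among them at -4.42.

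Surfactant genes and the genes of type 2 cells were far above the reference. The 3 markers named for the tissue were all higher in lung. Sftpc, a surfactant protein made by type 2 cells, stood at 4.68, 4.73, 4.33 and 5.34 in pools 1 to 4, a mean of 4.77 ± 0.17 (adjusted p = 2.88e-05). All pools were within about 1 unit of each other and far above 0. Scgb1a1, the secretoglobin of club cells, stood at 4.45, 4.77, 2.61 and 4.79, with pool 3 well below the other 3, and its mean was 4.15 ± 0.36 (adjusted p = 0.000273). Ager, the receptor for advanced glycation end products and a marker of type 1 cells, was smaller in ratio, at 2.04, 1.68, 0.60 and 1.28 (mean 1.4 ± 0.22, adjusted p = 0.00315). Each of these 3 markers was thus above the reference in every pool.

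Of the 27 type 2 cell and surfactant genes tested, 23 were higher and 1 lower, and their median was 1.78, against 0.04 over all features. Pool medians ran from 1.24 to 2.3. Slc34a2, the phosphate transporter of the type 2 cell surface, had the highest ratio of all named genes, at 7.41, 6.93, 5.85 and 6.89 (mean 6.77 ± 0.24, a 109-fold signal). Its reference signal was only 2.01 times the local background, so the size of the ratio rests on a dim channel. The collectin Sftpa1 stood at 5.37, 5.19, 4.52 and 5.3 and the surfactant protein Sftpb, which is needed for the film itself, at 4.65, 4.71, 4.14 and 4.59. Both held to a narrow range. Lyz2, the lysozyme of type 2 cells and macrophages, had a mean of 5.29 ± 0.27.

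Lamp3, a membrane protein of the lamellar bodies in which surfactant is stored, split by pool pair, at 5.65, 5.29, 2.7 and 3.1. Chil1, a chitinase-like protein, did the same at 5.13, 5.24, 2.68 and 3.43, and both were above 0 in every pool. Cxcl15, a chemokine of lung epithelium, averaged 4.07 ± 0.25, the collectin Sftpd 3.44 ± 0.29 and the lipid transporter Abca3 1.14 ± 0.16. Nkx2-1 itself was close to equal in the pools, at 1.49, 1.38, 1.26 and 1.49. Dlk1, an imprinted growth regulator, was the member below the reference, at -0.67 ± 0.18, and it lost its call without pool 1, 2 or 4.

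Type 1 cell genes followed with 17 of 22 higher and 1 lower (median 1.41, pool medians from 0.71 to 1.78). Sec14l3, a lipid-binding protein, averaged 3.97 ± 0.25, Clic5, an intracellular chloride channel protein, 3.96 ± 0.28, and a second probe for Clic5 read 4.73. Hopx, an atypical homeodomain protein of type 1 cells, stood at 4.01, 3.79, 2.37 and 3.49 and the water channel Aqp5 at 3.61, 3.33, 1.39 and 2.07. The tight-junction claudin Cldn18 was at 4.54, 3.91, 1.5 and 1.65, so its mean of 2.9 ± 0.52 joins 2 high and 2 lower pools. The keratin Krt18 was below the reference at -0.86 ± 0.17. Pdpn, a further marker of type 1 cells, was not called, nor were Igfbp2, Limch1 and Krt8.

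Airway secretory genes were higher in 20 of 25 cases and lower in 2 (median 1.33). Cyp2f2, the cytochrome P450 of club cells, stood at 6.43, 6.46, 4.23 and 5.23, a mean of 5.59 ± 0.37. Its reference signal was 9.58 times background. Cbr2, a lung carbonyl reductase, averaged 3.78 ± 0.19, the antimicrobial lectin Reg3g 3.61 ± 0.20, the haemoglobin-binding protein Hp 3.59 ± 0.38 and the flavin monooxygenase Fmo2 3.39 ± 0.40. Pigr, the receptor that carries polymeric immunoglobulin across epithelium, was the lowest member at -0.54, -0.84, -1.41 and -2.54, and its call was lost without pool 3.

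Ciliated cell genes were mixed in size. Of 31 tested, 16 were higher (13 to 16 without one of the pools) and 2 lower, with a median of 0.39. The dynein light chain Dynlrb2 stood at 2.63, 2.81, 2.24 and 2.91 and the tubulin-binding protein Tppp3 at 3.08, 2.98, 2.31 and 2.16. Ccdc113, a ciliary coiled-coil protein, averaged 2.2 ± 0.19, the dynein heavy chain Dnah5 1.65 ± 0.26, and Foxj1, the master transcription factor of motile cilia, 1.35 ± 0.20. Ift57, an intraflagellar transport protein, was lower at -0.63 ± 0.13. The share of basal, tuft and neuroendocrine cell genes called was close to the background, with 4 of 17 higher (0 to 2 without one of the pools) and 3 lower. The basal cell keratin Krt5 read -0.01, -0.05, 0.06 and 0.08 and was not called.

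**Figure D2:**
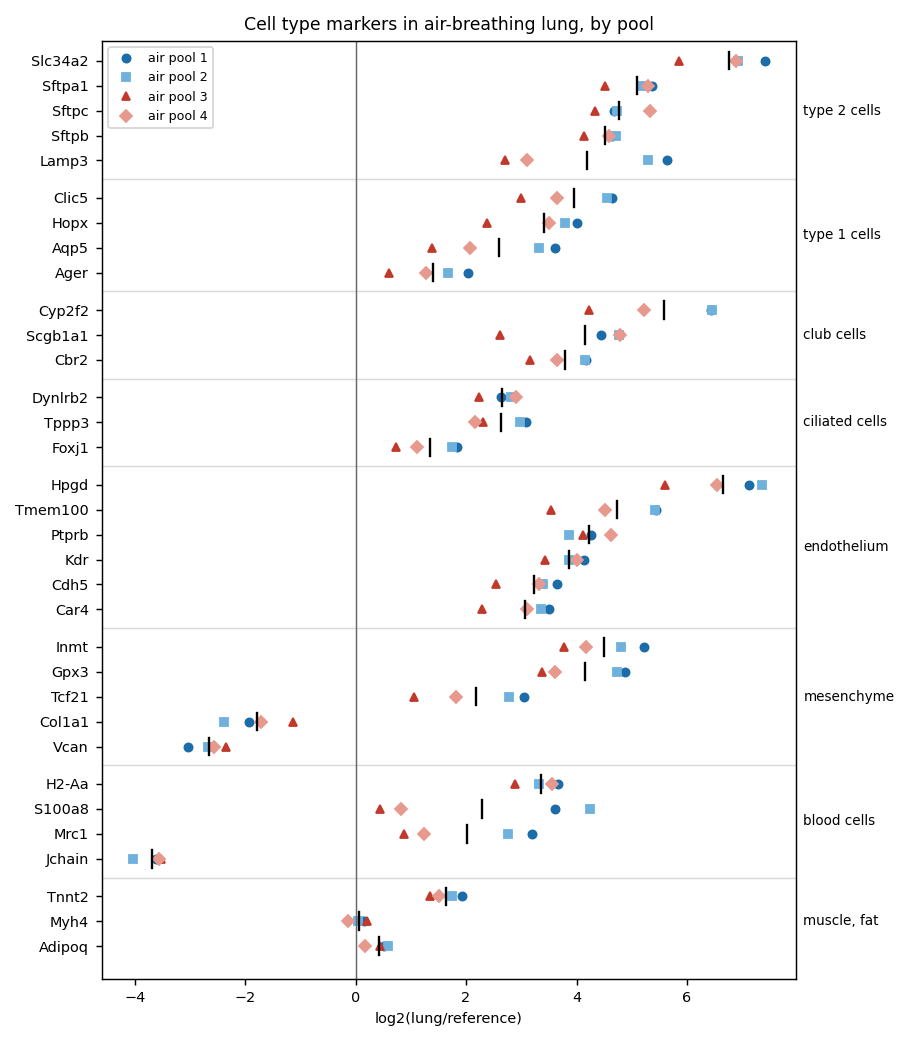
log2(lung/reference) of marker genes in each air pool (symbols) with the mean of the pools (black bar), grouped by the cell type they mark. Slc34a2 and Hpgd lie farthest to the right at means of 6.77 and 6.66, and Col1a1, Vcan and Jchain lie left of 0.

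Endothelial genes were far above the reference too. Of the 34 general endothelial genes, 27 were higher and 1 lower, with a median of 1.54 and pool medians from 1.0 to 1.96. Ptprb, the endothelial receptor phosphatase, stood at 4.27, 3.86, 4.12 and 4.63, highest in pool 4 (mean 4.22 ± 0.14, adjusted p = 2.76e-05). Its partner Tek, the angiopoietin receptor, stood at 4.97, 5.13, 3.36 and 3.2. Calcrl, the receptor for adrenomedullin, averaged 4.09 ± 0.17, and Kdr, the main VEGF receptor, stood at 4.14, 3.86, 3.44 and 4.0. Erg, a transcription factor of endothelium, averaged 3.39 ± 0.18. The junctional cadherin Cdh5 averaged 3.23 ± 0.18, Pecam1 2.66 ± 0.31 and the claudin Cldn5 1.45 ± 0.16. Procr, the protein C receptor, was the one member below the reference at -1.13 ± 0.12.

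Genes of the alveolar capillaries included the second highest ratio of all. Hpgd, which breaks down prostaglandins, stood at 7.13, 7.37, 5.6 and 6.55 (mean 6.66 ± 0.28, 101-fold), with a reference signal of 1.58 times background. Tmem100, a BMP-dependent membrane protein of arterial and capillary endothelium, stood at 5.44, 5.42, 3.54 and 4.52, and Cyp4b1, a lung cytochrome P450, at 5.51, 4.65, 3.36 and 3.98. Both were highest in pools 1 and 2. The carbonic anhydrase Car4 averaged 3.06 ± 0.20, the endothelin receptor Ednrb 2.15 ± 0.23 and the fatty acid receptor Cd36 3.18 ± 0.21. In all, 15 of 21 capillary genes were higher and 2 lower (median 1.33). The lower members were Tbx2 and Chst1, and Fibin, Sirpa, Lpl and Wwtr1 were not called. Of 16 genes of lymphatic, arterial and venous vessels, 11 were higher and 0 lower, Lyve1, the hyaluronan receptor of lymphatics, most with 4.66, 4.77, 2.25 and 3.02.

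Most of the fibroblast genes called lay above the reference. Of 35 tested, 20 were higher (57.1%, against 19.6% over all features) and 6 lower (17.1%, against 21.2%). Their median was 0.88. Inmt, a methyltransferase abundant in lung mesenchyme, stood at 5.23, 4.81, 3.78 and 4.18, and Gpx3, a secreted glutathione peroxidase, at 4.88, 4.72, 3.38 and 3.6. The matrix protein Dpt averaged 2.83 ± 0.25, Mgp, an inhibitor of calcification, 2.53 ± 0.48, and Tcf21, a transcription factor of lipofibroblasts, 2.18 ± 0.32. The fibrillar collagens were below the reference in every pool. Col1a1 stood at -1.92, -2.39, -1.13 and -1.71, Col1a2 averaged -1.66 ± 0.19 and the proteoglycan Vcan -2.65 ± 0.13.

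The matrix list was evenly divided, with 12 of 38 members higher and 12 lower. Each is 31.6%, against 19.6% higher and 21.2% lower over all features. Basement membrane genes fell on both sides. The type IV collagen chain Col4a3 stood at 3.48, 2.78, 1.51 and 1.92 and the laminin chain Lama4 averaged 1.71 ± 0.16, while the laminin chain Lamb1 averaged -0.39 ± 0.09 and the nidogen Nid2 -1.11 ± 0.12, both called lower. The call for Lamb1 was lost without pool 1 or 2. Lama5, Lamb2, Lamc1, Nid1 and Col4a5 were not called. Sparcl1, a secreted matricellular protein, averaged 2.94 ± 0.23. Fn1, fibronectin, was lowest at -2.9, -3.03, -3.73 and -3.11, then Lox, the enzyme that crosslinks collagen and elastin, at -3.07, -2.57, -2.45 and -2.8, and Col5a2, which forms fibrils together with type I collagen, at a mean of -1.77 ± 0.10. Eln, elastin, was modestly higher at 0.73, 0.53, 0.37 and 0.62. Smooth muscle and pericyte genes were higher in 12 of 25 cases (9 to 11 without one of the pools) and lower in 4 (0 to 4). The higher ones were led by Postn at 2.45 ± 0.17 and the cation channel Trpc6 at 2.12 ± 0.18. Acta2, smooth muscle actin, read -0.16, -0.36, -1.01 and -0.59 and lost its call without pool 3 or 4.

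With all 4 pools, leukocyte genes lay on both sides of the reference, more of them above it in each list. Genes of monocytes, neutrophils and dendritic cells were higher in 13 of 29 cases (10 to 12 without one of the pools) and lower in 1. The higher ones were led by the class II antigen-presenting genes H2-Aa at 3.66, 3.31, 2.88 and 3.56, H2-Eb1 at a mean of 2.08 ± 0.24 and H2-Ab1 at 1.86 ± 0.18. S100a8, a calcium-binding protein of neutrophils, stood at 3.61, 4.24, 0.44 and 0.83, high in the first pool pair and low in the second, and its call was lost without pool 4. Macrophage genes were higher in 14 of 24 cases (8 to 12 without one of the pools) and lower in 4. The lower members were the chitinase-like Chil3, the cathepsin Ctsd, the Fc receptor Fcgr1 and Ms4a7. The mannose receptor Mrc1 stood at 3.2, 2.75, 0.88 and 1.24, Apoe averaged 1.35 ± 0.22 and Marco, a scavenger receptor of alveolar macrophages, 0.43 ± 0.09, the last without a call when pool 1 was left out.

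T and NK cell genes were higher in 10 of 30 cases (5 to 8 without one of the pools) and lower in 6 (5 to 6). That is 33.3% higher and 20% lower, against 19.6% and 21.2% over all features. Higher were the NK and cytotoxic cell genes Klrb1c, Nkg7, Gzma, Gzmb, Klrd1, Klrk1, Klra8 and Tbx21, and also Cd3d and Cd4 of T cells. Lower were the T cell genes Cd3g, Cd8b1, Il7r, Cd28 and Themis, and the granzyme Gzmk. Themis, a T cell receptor signalling protein, was lowest at -1.92, -1.93, -2.32 and -2.92. Cd3e, a chain of the T cell receptor complex, read -0.02 ± 0.15 with no call. B and plasma cell genes were higher in 9 of 20 cases (45%, 4 to 7 without one of the pools). They were lower in 6 (30%, 6 to 7 without one of the pools). Which side held more of them thus depended on the pools used. With all 4 pools, the higher members were Cd79a, Ighm, Pax5, Cd22, Fcer2a, Fcrla, Bank1, Tnfrsf13c and Vpreb3. The lower ones were Jchain, Ms4a1, Blk, Cd72, Ebf1 and Pou2af1. Of 21 genes of mast cells, basophils and platelets, 8 were higher (5 to 8 without one of the pools) and 1 lower. Jchain, which joins secreted immunoglobulin into polymers, was among the 20 lowest of all named genes at -3.62, -4.03, -3.53 and -3.56, together with the light chain segments Igkv19-93 (mean -4.12 ± 0.45) and Igkv6-20 (-3.19 ± 0.09). The light chain segments belong to a multigene family whose members can share sequence with a probe.

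Markers of tissues next to the lung gave mostly small ratios. The shares called higher in the skeletal muscle (22.7%), mesothelial (23.1%) and thymus (23.1%) lists were near the 19.6% over all features. Those in the cardiac muscle (38.5%), red cell (42.9%) and adipocyte (53.8%) lists were above it. Cardiac muscle genes, which lung carries in the sleeves of the pulmonary veins, were higher in 10 of 26 cases, none past 4-fold, and lower in 2. Tnnt2, cardiac troponin T, stood at 1.93, 1.74, 1.35 and 1.52 and Tnni3 at 2.13, 1.79, 0.68 and 0.35, while the heavy chain Myh6 read 0.08 ± 0.16 with no call. Skeletal muscle genes were higher in 5 of 22 cases (3 to 5 without one of the pools), lower in 3, and the fast myosin Myh4 read 0.06 ± 0.10 with no call. Of 13 adipocyte genes 7 were higher (4 to 8 without one of the pools), each by less than about 1 unit, and Adipoq, adiponectin, stood at 0.51, 0.58, 0.44 and 0.18, a call lost without pool 1 or 2. Of 13 mesothelial genes, from the lining of the lung surface, 3 were higher and 3 lower. Thymus genes were higher in 3 of 13 cases. Of 14 red cell genes 6 were higher (4 to 7 without one of the pools) and 2 lower. Alas2, the first enzyme of haem synthesis in erythroid cells, stood at 2.04, 1.86, 0.88 and 2.15 and the globin Hbb-b2 at 1.86, 1.85, 0.48 and 1.31. The part of neighbouring tissue and blood in these ratios was not tested.

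**Figure D3:**
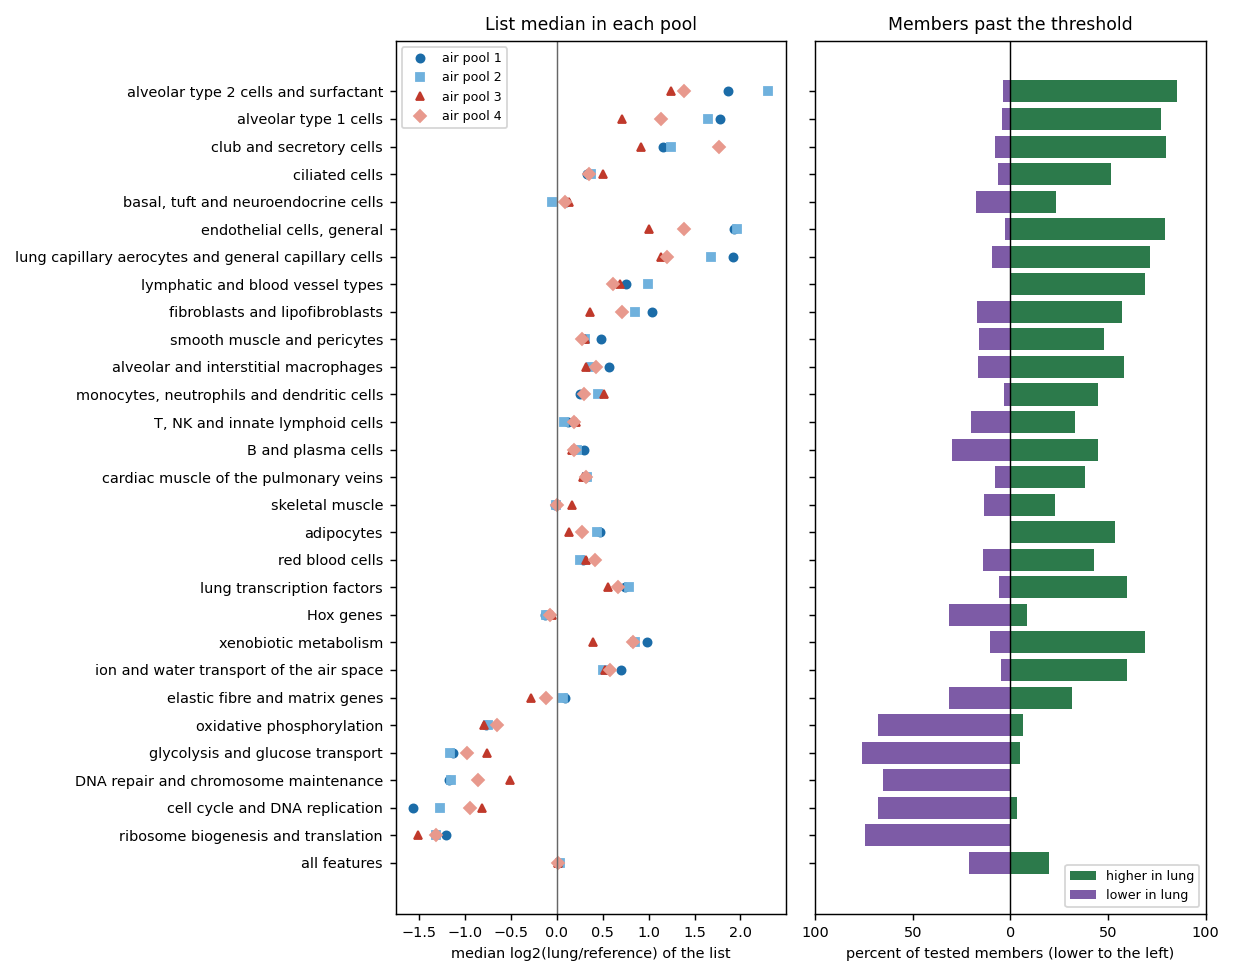
Median log2(lung/reference) of each gene list in each air pool (left) and the percent of its tested members past the threshold in either direction (right). Type 2 cell genes lie highest at a median of 1.78, ribosome genes lowest at -1.35, and the bottom line gives all features, with 19.6% higher and 21.2% lower.

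Transcription factors known from lung development were higher in 21 of 35 cases and lower in 2 (median 0.73). Klf2, a shear-responsive factor of endothelium, stood at 3.06, 3.19, 2.29 and 3.56. Foxf1, the forkhead factor of lung mesenchyme and capillaries, stood at 2.88, 2.99, 1.5 and 2.6, and Epas1, the hypoxia-inducible factor that lung endothelium carries, at 2.02, 1.96, 1.64 and 2.4. The epithelial factor Ehf averaged 2.3 ± 0.18 and Foxa2 1.68 ± 0.16. Tbx4, a T-box factor of lung mesenchyme, was narrow at 1.51, 1.45, 1.25 and 1.43. Tbx5 read 0.76 ± 0.32 without a call, and Zfpm2, a GATA cofactor, was the lowest of the list at -1.63 ± 0.12.

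Hox genes encode position along the body axis. Of 35 tested, 3 were higher (8.57%, against 19.6% of all features) and 11 lower (31.4%, against 21.2%), and 21 were not called. The median of the list was -0.02. Hoxa5, which lung mesenchyme needs to form normal airways, was highest at 1.08, 1.15, 0.55 and 1.03 (mean 0.95 ± 0.13). Hoxc9 was lowest at -2.79, -1.98, -2.14 and -2.64, then Hoxa10 at -2.35, -1.46, -1.02 and -2.17 and Hoxb6 at -1.04, -1.16, -1.42 and -1.58. Members of paralogue groups 1 to 5, the anterior part of the clusters, were higher in 2 of 13 cases and lower in 2, and those of groups 6 to 13 were higher in 1 of 22 cases and lower in 9. The count of lower Hox genes was 7 to 10 without one of the pools.

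Genes that metabolise foreign compounds were higher in 20 of 29 cases and lower in 3 (median 0.59). The carboxylesterase Ces1d stood at 4.97, 5.12, 3.54 and 3.87, the aldehyde dehydrogenase Aldh1a7 averaged 3.88 ± 0.35 and the flavin monooxygenase Fmo1 3.78 ± 0.28. Cyp1a1, the aryl hydrocarbon-induced P450, stood at 3.18, 2.89, 1.78 and 3.56, while its family member Cyp1b1 was below the reference at -1.96, -1.67, -2.19 and -2.02. Nqo1, a quinone reductase of the oxidative stress response, was lowest at -2.0, -2.24, -2.47 and -2.51. Close members of these enzyme families can share sequence with a probe, so the value of a single member is uncertain.

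Ion and water transport genes of the air space were higher in 12 of 20 cases (9 to 12 without one of the pools) and lower in 1. Scnn1g, a subunit of the epithelial sodium channel that clears fluid from the alveoli, stood at 3.51, 3.38, 2.09 and 3.12, Scnn1a averaged 1.63 ± 0.18, and the pump subunit Atp1b1 2.35 ± 0.17. Aqp1, the endothelial water channel, averaged 1.87 ± 0.18. Among mediators that act on vessels, Gucy1b1, a subunit of the nitric oxide receptor guanylate cyclase, stood at 4.61, 4.48, 2.47 and 3.25 and its partner Gucy1a1 averaged 1.87 ± 0.24. Ptgs2, the inducible cyclooxygenase, was below the reference at -2.93, -2.04, -1.88 and -2.08, opposite to the prostaglandin-degrading Hpgd. Of the 26 mediator genes 12 were higher (8 to 12 without one of the pools) and 4 lower (1 to 4).

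Signalling genes of the BMP, TGF-beta, Wnt and Hedgehog pathways were higher in 17 of 37 cases (11 to 14 without one of the pools) and lower in 5. Bmp3 stood at 3.57, 3.08, 0.80 and 0.59, a wide split between the pool pairs. Bmpr2, the BMP receptor mutated in heritable pulmonary hypertension in humans, averaged 1.8 ± 0.28, and the Wnt and Norrin receptor Fzd4 1.77 ± 0.20. Grem1, a secreted BMP antagonist, was lowest at -2.39, -2.08, -0.46 and -1.09. Serping1, the C1 inhibitor, led the innate defence genes at 3.72, 3.74, 2.26 and 2.69, of which 9 of 24 were higher (6 to 10 without one of the pools) and 1 lower.

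Genes of dividing cells formed the other pole. Of 56 cell cycle and replication genes, 38 were lower and 2 higher, with a median of -1.01 and pool medians from -1.56 to -0.81. Cdk1, the kinase that drives mitosis, was the lowest of all named genes, at -4.96, -4.49, -3.93 and -4.29 (mean -4.42 ± 0.17, a 21.4-fold lower signal, adjusted p = 3.58e-05). Top2a, the topoisomerase of dividing cells, stood at -4.68, -4.39, -3.18 and -3.9, and Mcm2, a subunit of the replicative helicase, at -3.38, -3.0, -2.98 and -3.58. Mki67, the proliferation marker, averaged -1.84 ± 0.16. The 2 exceptions were the mitotic kinesin Kif11 at 0.89, 0.81, 0.69 and 0.94 and Foxm1, a transcription factor of mitosis, at 0.50 ± 0.11, which lost its call without pool 1. Of 26 DNA repair and chromosome genes, 17 were lower and 0 higher, led by the chromatin remodeller Hells at -3.71, -3.46, -2.04 and -2.48. The histones H2bc12 (mean -3.61 ± 0.16) and H2bc1 (-3.19 ± 0.13) were also among the 20 lowest genes, and they belong to a family of near-identical copies that a probe may not tell apart.

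Growth and protein synthesis genes were lower as well. Of 35 genes for ribosomes and translation, 26 were lower and 0 higher, with a median of -1.35 that held in every pool, from -1.5 to -1.2. The nucleolar protein Npm1 stood at -2.71, -2.61, -3.01 and -2.68 and the ribosomal protein Rpl10a at -2.11, -2.12, -2.55 and -2.07. Both lay farthest below the reference in pool 3. Myc, the growth-promoting transcription factor, stood at -3.35, -3.34, -2.42 and -2.63, and Cdkn2a, the tumour suppressor locus that cultured cells often express, at -3.38, -2.78, -2.42 and -2.5. Of the 23 genes of the MYC, growth and oncofetal list, 9 were lower and 3 higher. Ribosomal protein genes have many processed pseudogenes, which a probe may also bind.

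Glycolysis genes were lower in 16 of 21 cases and higher in 1 (median -1.01). Pgk1, phosphoglycerate kinase, stood at -3.95, -3.26, -3.72 and -3.5, the glucose transporter Slc2a1 at -3.35, -2.92, -2.92 and -2.64 and the mutase Pgam1 at -3.08, -3.08, -3.02 and -3.06. The last was equal in the pools to within about 0.1 unit. Ldha, the lactate dehydrogenase subunit of glycolytic cells, stood at -2.71, -2.62, -2.67 and -2.74, while Ldhb, the subunit of oxidative tissue, was the one member above the reference at 1.2, 1.1, 0.45 and 0.98. Ero1a, an oxidase of protein folding known to respond to hypoxia, was also among the 20 lowest genes at -3.73, -3.65, -3.93 and -4.09, as was the cytokine Mif at -4.35, -4.23, -3.6 and -3.52. Gapdh is not analysed here. Its sperm-specific relative Gapdhs read -3.3 ± 0.10.

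Respiratory chain genes were lower in 21 of 31 cases and higher in 2. The 2 higher members were both alternative subunits of cytochrome oxidase found in heart, muscle and brown fat, Cox8b at 1.97, 1.6, 1.05 and 1.29 and Cox7a1 at 0.92, 0.67, 0.69 and 0.72. Their counterparts of most other tissues were lower, Cox7a2 at -1.07, -1.15, -1.69 and -0.92 and Cox8a at -0.16, -0.41, -0.47 and -0.66. The call for Cox8a was lost without pool 2, 3 or 4. Genes of amino acid, serine and nucleotide synthesis were lower in 14 of 25 cases and higher in 1, led by the serine enzyme Psph at -2.36 ± 0.14. Cholesterol and fatty acid synthesis genes were lower in 8 of 20 cases (4 to 6 without one of the pools) and higher in 1.

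**Figure D4:**
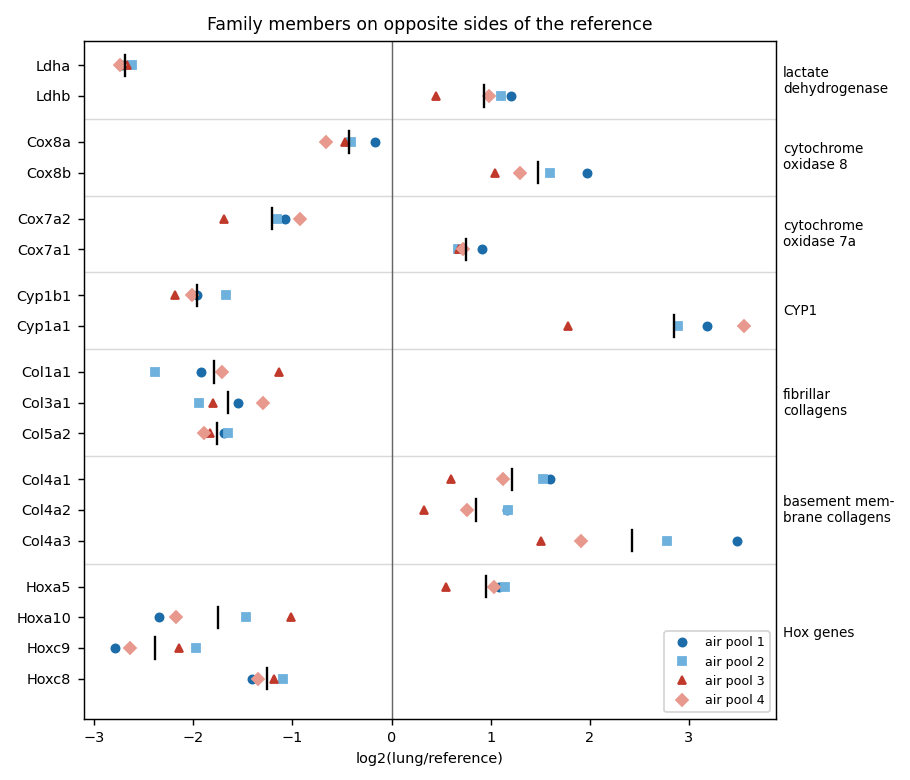
log2(lung/reference) in each air pool (symbols) and mean (black bar) for members of the same family or class. Within the lactate dehydrogenase, cytochrome oxidase and CYP1 pairs one member lies left of 0 and the other right of it in all 4 pools, and the fibrillar collagens plotted lie left while the basement membrane collagens plotted lie right.

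Genes of organs other than lung served as a further reading of the scale. Of 21 hepatocyte genes 2 were higher and 4 lower, and Alb, serum albumin, read 0.36 ± 0.09, a call that was lost without pool 1 or 2. Trf, transferrin, was the exception at 3.31, 3.25, 1.39 and 1.93. Of 16 kidney and mammary genes 0 were higher and 3 lower, Gatm, an enzyme of creatine synthesis, lowest at -3.0, -2.78, -2.6 and -2.84. Of 19 germ cell and steroidogenic genes 3 were higher and 2 lower, and of 21 skin, melanocyte and neural genes 7 were higher and 1 lower. The shares higher were 9.52% (hepatocyte), 0% (kidney and mammary), 15.8% (germ cell) and 33.3% (skin and neural), against 19.6% over all features. The shares lower were 19%, 18.8%, 10.5% and 4.76% in that order, against 21.2%. A ratio near 0 for such genes does not show that either RNA holds them, since both channels can be dim.

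The animals were male. Of 8 sex chromosome genes tested 1 was higher and 5 were lower (3 to 4 without one of the pools). Eif2s3y, a gene of the Y chromosome, was higher at 1.75, 1.5, 0.85 and 1.55. Kdm5d, also of the Y chromosome, was lower at -0.29, -0.57, -1.24 and -1.3 and lost its call without pool 3 or 4. Xist, the RNA of the inactive X chromosome in females, was lower at -4.02, -1.55, -3.44 and -3.37, with pool 2 less far below the reference than the others.

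Genes of the circadian oscillator were mixed. Of 17 tested, 5 were higher (3 to 8 without one of the pools) and 4 lower (3 to 6). That is 29.4% higher and 23.5% lower, not far from the 19.6% and 21.2% over all features. Per2 stood at 1.94, 1.81, 0.01 and 0.72 and Arntl at -1.44, -1.56, 0.09 and -1.48, and in pool 3 both were near 0. Both calls were lost without pool 4. Bhlhe40, a repressor of circadian genes, was even in the pools at -0.78, -0.78, -0.76 and -0.82. The labels do not name a time of day for sampling.

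The motifs printed at the opening were counted over all promoter windows, as a description. RefSeq's table held a window for 13207 of the 16486 named genes tested. GTTGCC on either strand was in 14 of 27 windows of the ciliated cell list (51.9%), against 12.2% of all windows. TTTGAA was in 20 of 46 windows of the cell cycle list (43.5%), 23.7% of those of genes over 4-fold lower, and 14.4% of all. The NKX2-1 core CTCAAG was in 24 of 120 windows of genes over 4-fold higher (20%), against 14.3% of all. It was in 4 of 19 windows of the type 2 cell list and in 5 of 17 of the club cell list. Lists outside the epithelium gave like shares, 9 of 46 for the cell cycle list (19.6%) and 3 of 15 for the endothelial list (20%). The Cdk1 and Dynlrb2 windows printed above also hold CTCAAG on one strand or the other, where it is not in capitals. The TATA box, TATAAA, was in 17.5% of windows of genes over 4-fold higher and in 17.8% of those over 4-fold lower, against 11.5% of all. The forkhead motif TGTTTAC was in 4.17% of windows of the higher genes, 2.96% of those of the lower genes and 3.0% of all. It was in 4 of 19 windows of the type 2 cell list (21.1%) and in 0 of 17 of the club cell list.

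The windows also differed in base composition. Genes over 4-fold higher in lung held a median of 8 CG dinucleotides per window, genes over 4-fold lower 21, and all tested genes 17. Dynlrb2 and Ccdc113, the ciliary genes shown above, carry GTTGCC 51 and 6 bases before the start, and Cdk1 carries TTTGAA 15 bases before it as well as farther out. Windows for Sftpc and Scgb1a1 were not analysed here. A match is a run of letters and not evidence of binding.

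**Figure D5:**
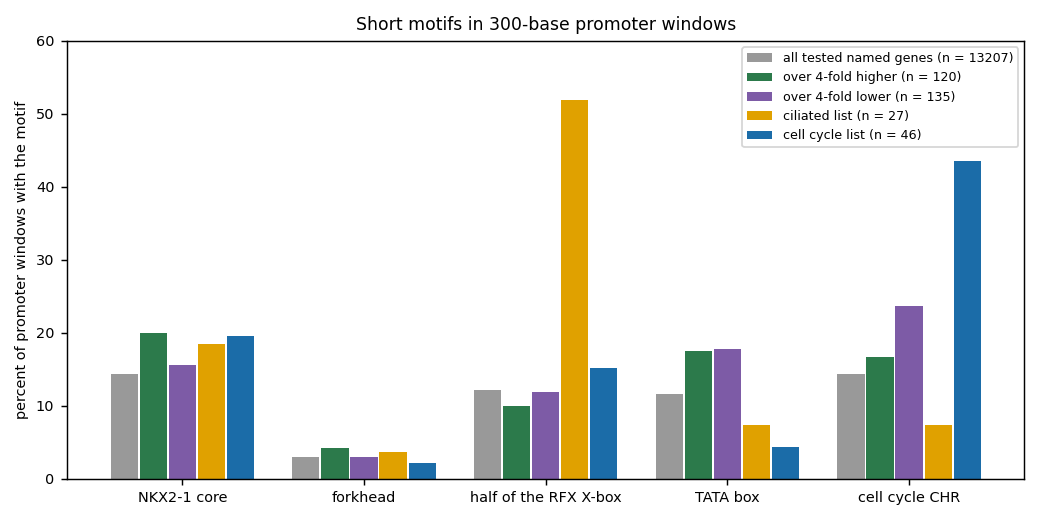
Percent of 300-base promoter windows that hold each motif on either strand, for all tested named genes with a window, genes over 4-fold higher or lower in lung, and the ciliated and cell cycle lists. The X-box arm stands out in the ciliated list (51.9%) and the cell cycle motif in the cell cycle list (43.5%), against 12.2% and 14.4% of all windows.

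The leading ratios were also read in each dye. For each of the 20 highest and each of the 20 lowest genes, the arrays with lung in Cy3 and those with lung in Cy5 gave the same sign. These genes were picked for large means over both dyes, so the choice itself largely fixed that agreement. For the 20 highest the difference between the dyes, Cy5 minus Cy3 in pools 1 to 3, had a median of -0.0838 and ran from -0.832 to 1.26 on the log2 scale, the last for Scgb1a1. For the 20 lowest it had a median of -0.3. Of the 459 called genes with exactly 1 further probe, that probe lay on the same side of 0 for 343 (74.7%). The further probe for Rps18, a ribosomal protein gene, read 0.15 against -1.82 for the brighter one. That for Smc4, a condensin subunit, read -0.33 against -2.31. Probes of the same gene can thus disagree, and which of them was right was not tested.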

How the data were processed

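Groups, pools and dyes were taken from the labels. RNA of each air pool, 5 ug per labelling, was reverse transcribed, coupled to Cy3 or Cy5 and hybridised with the reference in the other dye. The deposited spot files hold, per the file headers, integrated intensity values from TIGR Spotfinder 2.2.3 or 2.2.4, with local background subtracted, and an SF value for each spot that the headers leave undefined. The deposited SF, treated as a score, was used only to leave out spots in an alternative. In a second deposited table the authors gave a log2 ratio per spot and array. Against the loess ratios its columns had slopes of 0.965 to 0.996, and 0.297 for the joined file, so the authors deposited that column as log10 ratios. The authors' column medians were -0.0186, -0.0958, 0.0514 and 0.00332 for pools 1 to 4 with lung in Cy3 and 0.059, 0.086, 0.0889 and 0.0782 with lung in Cy5. No label or header states their normalisation.

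The joined file's Cy5 values correlated with those of air pool 3 with lung in Cy5 at r = 0.909, and at most at 0.798 with any other air array. Spots at or below 0 were treated as missing. With R 4.3.3 and limma 3.58.1, ratios were loess-normalised within each array, oriented as log2(lung/reference), and the arrays of a pool, the replicate, were averaged. Features with at least 3 pools were tested against 0 with lmFit and eBayes, two-sided, Benjamini-Hochberg adjusted over all features, at a threshold of 0.05. The reference is 1 preparation, so its own spread is not in the error. The labels give separate pools of animals. The script was tested on simulated data. The files give no background SD, so a spot was taken as above background where its net signal exceeded the local background. No feature past 4-fold was below that in the lower channel on every array.

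Deposited spot numbers did not follow the annotation. Of 8 ways to lay it over the grid of 215 by 105 spots, 1 gave a correlation of 0.542 between the 2 probes of a gene (1030 pairs) and the other 7 at most 0.0704. All gene names depend on that layout. The annotation gave 1 symbol for 18218 probes, several for 16 (not named) and none for 4341. A gene took its brightest probe, and probes without a symbol stayed as features of their own. Of the probes with 1 symbol, 18175 matched RefSeq (GRCm38.p6), which is also the source of the promoters. Coordinates come from that table alone.

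The arrays, the 43 gene lists (1177 entries, 1060 tested, 8 through a synonym) and the rule for named genes were chosen with earlier results of these data known. The rule took the 20 highest and 20 lowest named genes with one sign in all pools, up to 5 higher and 3 lower members per list, and 44 genes whatever their values (39 measured). Abca3, Fmo2, Rps18, Col3a1, Col4a2, Hoxc8, Cox7a2, Cox8a, Lamb1, Nid2, Lama5, Lamb2, Lamc1, Nid1 and Col4a5 were added after their values were seen. Alternatives covered dye, centring, the authors' ratios, dim and SF spots, image program version, probe choice and each pool.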

Additional observations from a re-analysis of the deposited data

Results flagged for a closer look

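In 9 of 207 sets of 4 pool values (164 genes named in the report and the median of each list), one pool stood apart by Dixon's criterion at the 95% level. Chance flags about 1 in 20 such sets. In 8 of them the pool was pool 3, and for Lamb1 it was pool 4, at -0.445 with the other pools at -0.375 to -0.363. In pool 3, for Scgb1a1 the value was 2.61, with the other pools at 4.45 to 4.79. For the ciliary genes Ccdc113 and Dnah5 it was at 1.47 and 0.552, with the others at 2.43 to 2.45 and 1.92 to 2.07. For Postn it was at 1.80, with the others at 2.65 to 2.69. For Rpl10a it was at -2.55, lower than the others at -2.12 to -2.07. For Smc4 it was at -1.89, with the others at -2.45 to -2.43. For Arntl it was at 0.0913, with the others at -1.56 to -1.44. The median of the skeletal muscle list was 0.167 in pool 3 and -0.0191 to 0.00672 in the others. Without pool 3 the mean of Scgb1a1 was 4.67 and that of Dnah5 2.02. The cause was not tested.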

How the results depend on the processing

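No paired analysis was possible because a single group, air lung, was tested against 0. The count of higher genes, 4054, was 2420 with the joined file included and 1703 with lung in Cy3 only, and 2635 to 3694 without one of the pools, the lowest without pool 1. The count of lower genes, 4379, was 2247 with lung in Cy3 only and 3342 to 3951 without one of the pools. Genes over 4-fold higher, 181, numbered 113 in the version 2.2.3 pools alone, 293 in the version 2.2.4 pools alone and 149 to 232 without one of the pools. Genes over 4-fold lower, 201, numbered 114 with the joined file and 193 to 235 without one of the pools. Lung in Cy3 only leaves 3 pools with 1 array each. Among air arrays, the joined file's Cy5 values correlated most with air pool 3 with lung in Cy5 (r = 0.909). That file may thus hold a ratio of lung to lung in place of lung to reference, though arrays of the lipopolysaccharide group were not compared with it. The cause of the changes was not tested. The other settings kept these 4 counts within 1.5 times. Of the genes named, 164 were followed through these settings, and 0 of them changed sign with a call. Calls lost numbered 25 with lung in Cy3 only, 7 and 2 in the version 2.2.3 and 2.2.4 pools alone, 6 with the joined file, 1 with median centring, 1 with the authors' ratios, and 4 to 7 without one of the pools. Lung in Cy3 only, the version term and the version 2.2.4 pools alone each added the call of Tbx5, and the last also that of Myh6. The version term and the version 2.2.3 pools alone added that of Lamb2. The median of a list moved by more than its spread over pools in 78 of 731 cases, and its sign changed in 27, in 7 lists whose medians lay within 0.123 of 0. The precision is limited by 4 pools, and by dim reference signal for the highest ratios.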
